A study of Bos taurus with 16 samples.

Results

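The fibroblast growth factor (FGF) system of the early bovine embryo was followed through 7 genes, the receptors FGFR1, FGFR2, FGFR3 and FGFR4 and the ligands FGF2, FGF4 and FGF10. Each gene was taken by its symbol in the 3 deposited tables, and all 7 were found in each of them, out of 43155 distinct gene names over the tables. They were read in 12 single bovine blastocysts and in 4 libraries of bovine embryonic stem cells (bESCs). All samples carry the genotype WT. The question was where these genes stand in control embryos and stem cells, and whether they differed after LY2955303 (LY), an inhibitor of the retinoic acid receptor RARγ. The first blastocyst experiment compared LY10, given 10 μM LY from the 2-cell stage, with DMSO, given the vehicle, at 3 embryos each. The second compared LY from the 2-cell stage (cell2_LY), LY from the 16-cell stage (cell16_LY) and vehicle (LY_DMSO), at 2 embryos each, and its labels give no concentration. The stem cell experiment compared bESC_LY with bESC_tifx, which is labelled with the culture medium, at 2 libraries each that carry the numbers 2 and 3.

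FGF ligands bind receptor tyrosine kinases together with heparan sulfate, and the receptors pass the signal through adaptors to Ras, RAF, MEK and ERK. ERK activity switches on transcription factors and also the Sprouty and DUSP inhibitors that damp the same pathway. In mammalian blastocysts FGF4 is known as the epiblast ligand that directs neighbouring inner cells towards hypoblast, with FGFR1 and FGFR2 as its main receptors in the mouse, and FGF2 and FGF10 are known from bovine trophectoderm and uterine signaling. The cultures also acted on this system, in treated and control groups alike. The methods list FGF2 protein in the embryo culture medium of the DMSO and LY groups. The bESC medium contained SU5402, an inhibitor of FGF receptors, and PD184352, an inhibitor of MEK. The bESCs also grew on mouse embryonic fibroblast feeders.

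The values are fragments per kilobase of gene, scaled to library size (FPKM), so levels of different genes within a table can be set side by side. The 3 tables were normalised separately, and embryo RNA and stem cell RNA were prepared with different kits. No test was therefore run between tables. For tests, FPKM were turned back into reads, scaled to 1 library size within each table (normalised counts), and compared by limma on log2(normalised count + 1) for genes with a mean of at least 10. A gene was counted as past the threshold at an unadjusted p under 0.05 with an absolute log2 fold change above 1, the rule of the study, and the p printed is the Benjamini-Hochberg adjusted one over all tested genes. Depth was between 7905768 and 17343140 reads on genes in a blastocyst and between 29055323 and 31230432 in a bESC library. Nothing in the labels says that embryos came from separate collections, so p-values measure the spread between these libraries.

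Libraries of 1 group were far from identical, and DMSO replicate 3 stood apart within the first experiment. The chi-square of the counts over genes, per degree of freedom, was 84.3 and 109 between it and the other DMSO embryos and 48.3 between those. Its fibroblast marker sum was 92.5 FPKM against 28.4 and 27.4 in the other DMSO embryos, and it held 2 reads of FGF9 against 22 in each of those. The fibroblast marker LUM, named after its values were seen, reached 80.1 FPKM in the first experiment. This is above the whole sum of every other embryo there, so LUM made up most of the 92.5. COL1A2 stood at 7.14 FPKM in DMSO replicate 3, against 4.94 and 12.9 in the other DMSO embryos. The members' fold changes and the list counts of the first experiment are therefore also given without it. In the second experiment, the divisor behind the FPKM exceeded the gene reads of cell2_LY replicate 1 by a ratio of 1.23, against ratios of 0.949 to 1.04 in the other 5 embryos. The labelled cell types carried some of their markers. POU5F1, the core pluripotency factor, was at 164 FPKM or more in every blastocyst and at 967 or more in every bESC library. The trophectoderm markers summed to 3171 FPKM or more in every blastocyst and to between 99.3 and 297 FPKM in bESCs, where the trophoblast genes IFNT2 and PAG2 had 0 reads. In the first experiment the keratins KRT8 and KRT18 stood at 1582 and 849 FPKM or more. CDX2 stood at 7.68 FPKM or less there, HAND1 at 0.498 or less and ELF5 at 0.310 or less. These 5 markers are named after their values were seen.

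In the blastocyst tables the genes carry NCBI Gene identifiers, and the positions of all 7 are those of RefSeq on ARS-UCD2.0. FGFR1 lies on chromosome 27 from 33548428 to 33599029, FGFR2 on chromosome 26 from 41450677 to 41557736, and FGFR3 on chromosome 6 from 116766308 to 116781167, all on the minus strand. FGFR4 lies on the plus strand of chromosome 7 from 38575626 to 38586374. FGF2 lies on the minus strand of chromosome 17 from 34801330 to 34860849, FGF4 on the minus strand of chromosome 29 from 47001981 to 47003919, and FGF10 on the plus strand of chromosome 20 from 30504441 to 30601752. The values are sums over whole genes, so receptor splice forms with different ligand preference were not separated. FGF2 overlaps NUDT6, a gene on the opposite strand, over 5832 bases in the blastocyst tables and 5830 in the bESC table. Whether counting used the strand is not given in the sources used here, and reads in the overlap cannot then be told apart. The bESC table uses Ensembl identifiers and other lengths for the receptors. The length of FGFR3 is 7940 bases in the blastocyst tables and 4352 in the bESC table, which makes its blastocyst FPKM lower than the bESC length would.

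**Figure D1:**
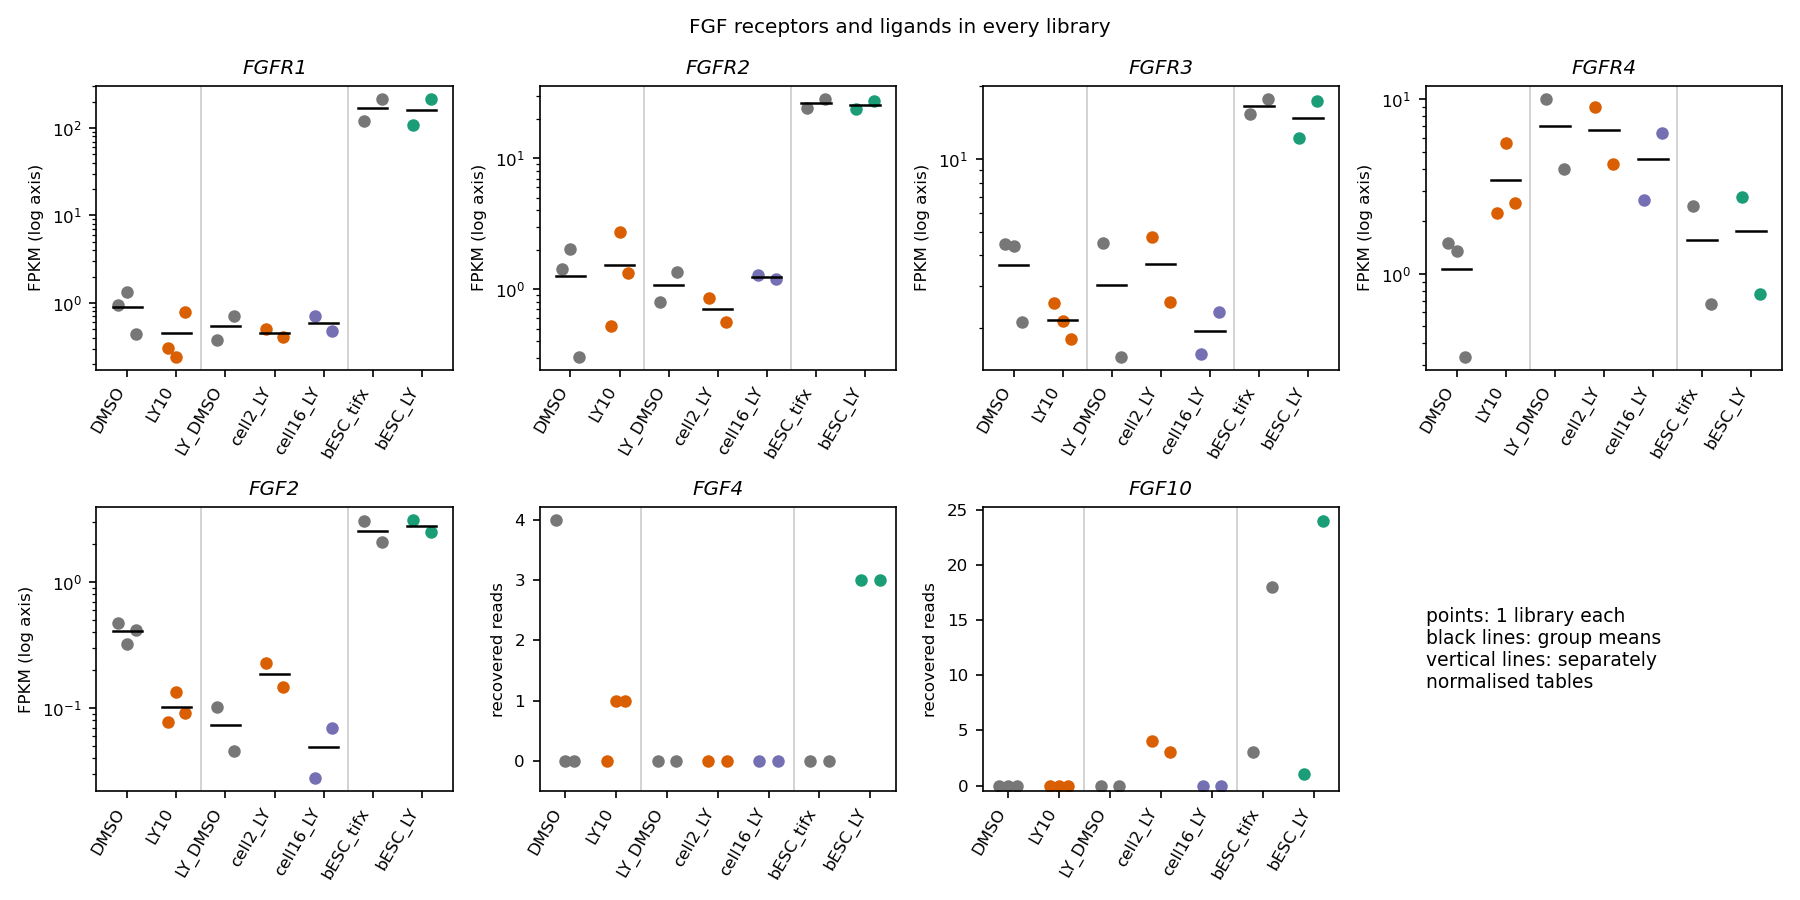
Level of each FGF gene in every library, as FPKM on a log axis for the 4 receptors and FGF2, with group means as black lines, and as recovered reads for FGF4 and FGF10. FGFR1 sits between 0.243 and 1.33 FPKM in blastocysts and between 107 and 215 in bESCs, and the 3 LY10 embryos sit above the 3 DMSO embryos for FGFR4 and below them for FGF2.

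With the deposited gene lengths, the receptor with the highest mean level was FGFR3 in the DMSO embryos and FGFR4 in the other 4 groups of blastocysts. The order of these receptors depended on gene length. With the lengths of the bESC table, chosen after seeing the data, FGFR3 also exceeded FGFR4 in LY10 replicates 1 and 3, cell2_LY replicate 2 and cell16_LY replicate 1. In the DMSO embryos FGFR3 stood at 4.44, 4.38 and 2.12 FPKM, and its range lay above that of every other member. FGFR2, which binds ligands of epithelial and mesenchymal origin depending on its splice form, stood at 1.42, 2.05 and 0.305 FPKM, and FGFR4 at 1.51, 1.35 and 0.334 FPKM. FGFR1 stood at 0.951, 1.33 and 0.447 FPKM. The ranges of FGFR2, FGFR4 and FGFR1 overlapped, so their order among DMSO embryos was not resolved, and DMSO replicate 3 was the lowest embryo of the group for all 4 receptors.

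The control embryos of the second experiment had another order. In the LY_DMSO embryos FGFR4 led with 10.1 and 3.98 FPKM and FGFR3 followed with 4.50 and 1.53 FPKM, with overlapping ranges. FGFR2 stood at 0.801 and 1.35 FPKM and FGFR1 at 0.382 and 0.718 FPKM, each without overlap with its neighbour in the order. FGFR4 was thus between 0.334 and 1.51 FPKM in the control embryos of the first experiment and between 3.98 and 10.1 in those of the second. Experiment, table and embryos cannot be told apart in this difference, and it was not tested.

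As shares of the summed FPKM of the 4 receptors, FGFR4 made up between 42.8% and 63.9% in the 6 embryos of the second experiment and FGFR3 between 20.2% and 32.9%. In the first experiment FGFR4 made up between 10.4% and 52.4% and FGFR3 at most 66.2%. The ratio of FGFR4 to FGFR3 was 0.339, 0.309 and 0.157 in DMSO and 0.876, 2.62 and 1.41 in LY10, and it was between 1.66 and 2.73 in the 6 embryos of the second experiment. The log2 ratio was 0.57 ± 0.79 in LY10 and -1.97 ± 0.60 in DMSO (SD, n = 3), and a two-sided exact permutation test of its difference of 2.54 gave p = 0.1, the smallest that 3 against 3 allows. The ratio was chosen after its values were seen, so the test is no independent support. It also depends on gene length. With the lengths of the bESC table, chosen after seeing the data, FGFR4 exceeded FGFR3 in 4 of 6 embryos of the second experiment in place of 6 of 6, and in 1 of 6 of the first in place of 2 of 6.

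**Figure D2:**
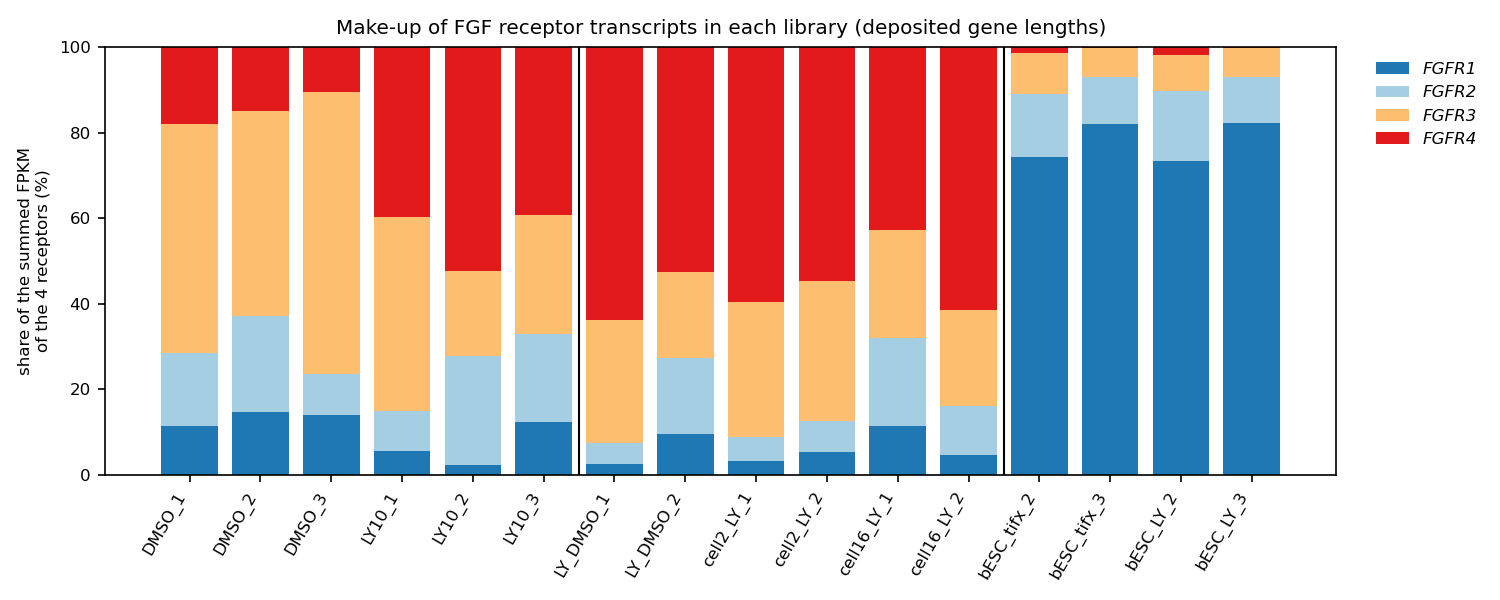
Share of each receptor in the summed FPKM of FGFR1, FGFR2, FGFR3 and FGFR4, in percent, 1 bar per library with the deposited gene lengths, and black lines between the separately normalised tables. FGFR3 and FGFR4 fill most of each blastocyst bar, and FGFR1 fills between 73.3% and 82.3% of each bESC bar.

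In bESCs the receptors had another make-up. FGFR1, the receptor that is broadly used by pluripotent cells in culture, stood at 120 and 215 FPKM in the bESC_tifx libraries 2 and 3 and at 107 and 213 in the bESC_LY libraries 2 and 3. FGFR2 stood between 24.0 and 28.5 FPKM and FGFR3 between 12.2 and 17.7 FPKM over the 4 libraries, and the ranges of FGFR1, FGFR2 and FGFR3 did not overlap. FGFR4 was the lowest receptor, at 2.45 and 0.666 FPKM in bESC_tifx and 2.74 and 0.765 FPKM in bESC_LY, which is between 0.254% and 1.88% of the receptor sum. Mouse feeder RNA could reach these libraries, and its part in the levels was not tested. The 12 fibroblast markers summed to between 85.3 and 107 FPKM in bESCs, and each library held reads of at least 10 of the 12. COL1A1, a collagen chain of fibroblasts, stood between 45.8 and 54.7 FPKM. The collagen gene COL1A2 stood between 3.03 and 3.79 FPKM, against 2.36 to 12.9 in blastocysts, and COL3A1 between 0.263 and 0.534 FPKM. COL1A1 and COL3A1 are named after their values were seen. DCN and POSTN had 0 reads in library 3 of bESC_LY. In blastocysts the sum of the 12 markers ranged from 6.57 to 92.5 FPKM, the highest in DMSO replicate 3, where LUM made up most of it.

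The number of a bESC library went with the levels of several members, in both groups. FGFR1 was 1.79 times higher in library 3 than in library 2 of bESC_tifx and 1.99 times higher in bESC_LY. FGFR4 went the other way and was 3.68 times higher in library 2 of bESC_tifx and 3.58 times higher in library 2 of bESC_LY. FGFR2 differed by 1.18 and 1.16 times and FGFR3 by 1.16 and 1.42 times, higher in library 3. The trophectoderm marker sum was 297 and 257 FPKM in the libraries numbered 2 against 114 and 99.3 in those numbered 3, while the fibroblast marker sum was 88.2 and 85.3 against 107 and 105. Each number has 1 library per group, so these are values without a test, and the part of the markers in them was not tested.

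The ligands were at low levels in every embryo. FGF2, a ligand without a signal peptide that is also a medium component here, stood at 0.475, 0.326 and 0.421 FPKM in DMSO, from 43, 23 and 27 reads. It stood at 0.101 and 0.0460 FPKM in LY_DMSO, from 11 and 5 reads. In bESCs it stood between 2.10 and 3.11 FPKM, from 442 to 598 reads, and there its range overlapped that of FGFR4. In each blastocyst FGF2 thus rested on 43 reads or fewer.

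FGF4 was near the limit of detection throughout. It had 4 reads in DMSO replicate 1, 1 read each in LY10 replicates 2 and 3, and 0 reads in the other 9 blastocysts. A count of 0 allows up to 3 reads, which for this gene of 621 bases is up to 0.618 FPKM in the first experiment and 0.370 FPKM in the second. In bESCs FGF4 had 3 reads in each bESC_LY library and 0 in each bESC_tifx library, where 0 allows up to 0.163 FPKM. A count of 3 has an exact Poisson interval from 0.619 to 8.77 reads, and this covers counting error alone.

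FGF10, a ligand of the FGFR2 form found on epithelia, had 0 reads in 10 of 12 blastocysts, which allows up to 0.113 FPKM in an embryo of the first experiment and 0.0678 FPKM in one of the second. The exceptions were both cell2_LY embryos, with 4 and 3 reads. In bESCs it had 3 and 18 reads in bESC_tifx and 1 and 24 reads in bESC_LY, and the higher count was in the library numbered 3 of each group. Neither FGF4 nor FGF10 reached the mean needed for a test in blastocysts.

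Other FGF ligands gave context for these low levels. Of 17 further ligands and binding proteins in the blastocyst tables, FGF9 was the only one that passed the filter in the blastocyst comparisons, and it is named here after its values were seen. FGF9, known as a ligand of FGFR3 among others, stood at 2.30, 2.95 and 0.295 FPKM in DMSO and at 1.74 and 1.30 FPKM in LY_DMSO, above FGF2 in 4 of these 5 embryos. In bESCs FGF19, a hormone-like ligand of FGFR4 with the co-receptor KLB, was the ligand with the highest level of those listed, also chosen after its values were seen. It stood at 17.7 and 33.4 FPKM in bESC_tifx and at 44.7 and 35.7 FPKM in bESC_LY, while KLB was at 0.601 FPKM or less in bESCs.

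LY10 blastocysts carried more FGFR4 and less FGF2 than DMSO blastocysts, and the other receptors showed no difference past the threshold. FGFR4 stood at 2.23, 5.62 and 2.55 FPKM in LY10 against 1.51, 1.35 and 0.334 FPKM in DMSO, so each LY10 embryo was above each DMSO embryo. Its log2 fold change was 1.81 (SE 0.64, 95% interval 0.35 to 3.26), with an adjusted p of 0.150 by limma. As means of normalised counts FGFR4 rose 3.26-fold, from 38.4 ± 23.0 to 125 ± 67.4 (SD, n = 3).

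FGF2 stood at 0.0777, 0.134 and 0.0922 FPKM in LY10 against 0.475, 0.326 and 0.421 FPKM in DMSO, again without overlap. These are 4, 14 and 5 reads against 43, 23 and 27, and the exact Poisson intervals of LY10 replicate 2 (7.65 to 23.5 reads) and DMSO replicate 2 (14.6 to 34.5 reads) overlap. Its log2 fold change was -1.88 (SE 0.65, 95% interval -3.37 to -0.40), with an adjusted p of 0.145 by limma. As means of normalised counts DMSO was 4.03 times LY10, at 28.6 ± 5.31 against 7.10 ± 2.04 (SD, n = 3). FGF2 reached the mean of 10 needed for a test only through DMSO, as its LY10 mean of 7.10 lay below 10. Its place among the tested members is therefore not independent of its difference. The 2 members past the threshold are 2 of 5 tested, where 14.7% of the 14249 tested genes passed it, 6.20% higher and 8.51% lower. Replicates did not overlap for 2 of the 5, against 28.1% of all tested genes. After adjustment 0 of the 5 remained under 0.05, as against 2 of all tested genes (0.0140%).

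FGFR3, FGFR1 and FGFR2 did not pass the threshold. The log2 fold change of FGFR3 was -0.69 (SE 0.35, adjusted p = 0.282 by limma), from 2.55, 2.14 and 1.81 FPKM in LY10. All LY10 embryos lay below DMSO replicates 1 and 2, and 2 of the 3 lay above DMSO replicate 3. That of FGFR1 was -1.03 (SE 0.67, adjusted p = 0.380 by limma), from 0.309, 0.243 and 0.793 FPKM in LY10. FGFR2 stood at 0.523, 2.72 and 1.33 FPKM in LY10, a log2 fold change of 0.35 (SE 0.80, adjusted p = 0.817 by limma), and the groups overlapped.

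Single libraries decided several of these calls. Without DMSO replicate 3, the log2 fold change was 1.14 for FGFR4 (adjusted p = 0.151 by limma) and -1.85 for FGF2 (adjusted p = 0.117), both still past the threshold. FGFR3 came past it at -1.04 (adjusted p = 0.0511 by limma). In that fit 3449 of 14252 tested genes passed the threshold, against 2097 of 14249 with DMSO replicate 3 included. An adjusted p under 0.05 was reached by 1963 genes, against 2. In the same fit FGFR2 turned to -0.45 and FGFR1 moved to -1.46, neither past the threshold. FGFR4 missed the threshold without LY10 replicate 2, at 1.40 (adjusted p = 0.360 by limma), and FGF2 missed it without DMSO replicate 1, at -1.77 (adjusted p = 0.313), and under quantile normalisation, at -1.21 (adjusted p = 0.317).

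**Figure D3:**
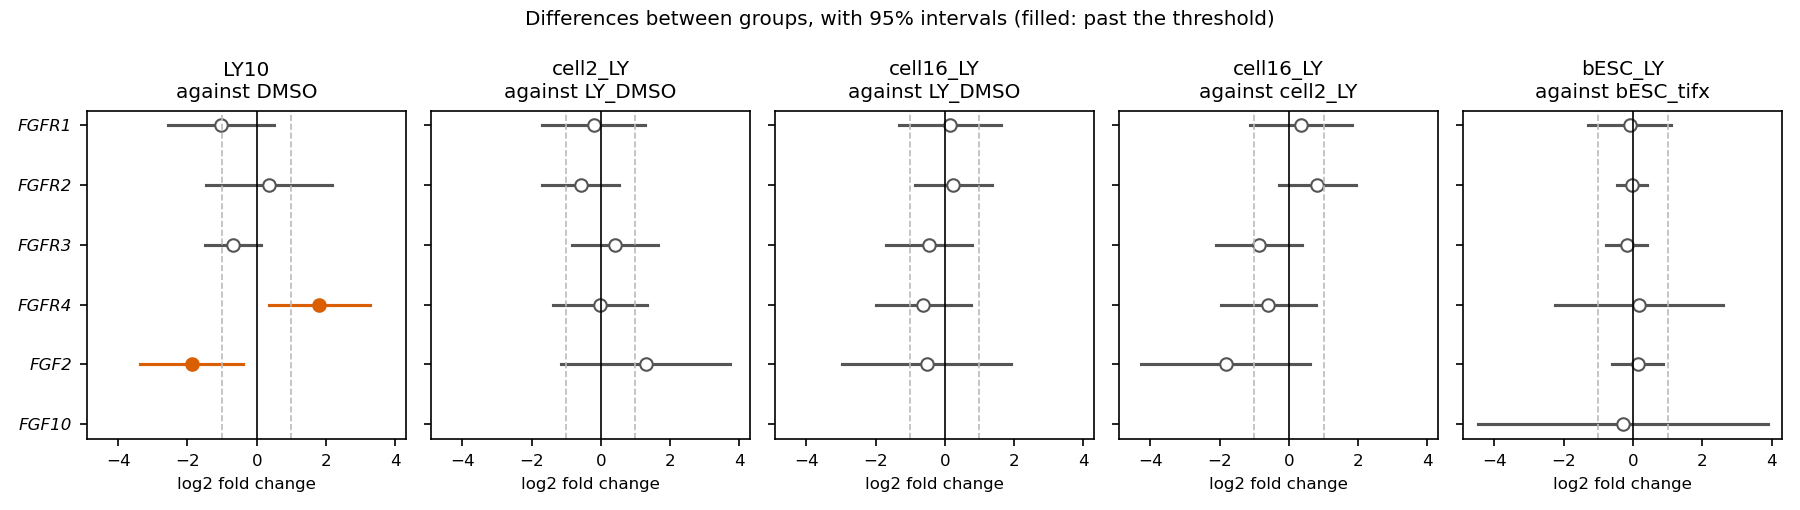
Log2 fold change of each tested FGF gene in the 5 comparisons, with the 95% interval of the limma fit as a line, filled where past the threshold, and dashed lines at -1 and 1. FGFR4 at 1.81 and FGF2 at -1.88 in LY10 against DMSO are the filled points, and the intervals in the other 4 panels include 0.

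Some markers of cell types also differed between LY10 and DMSO, and others of the same lists did not. The sum of the 6 epiblast markers in the table was 281, 217 and 175 FPKM in DMSO and 505, 754 and 370 FPKM in LY10, without overlap. POU5F1 made up most of each sum, at 246, 184 and 164 FPKM in DMSO and 481, 611 and 328 in LY10, with a log2 fold change of 1.23 (adjusted p = 0.0786 by limma). It was the 1 of 6 epiblast markers past the threshold, where 5 lay above 0 and 1 below, and NANOG overlapped between the groups, at 2.91 to 22.5 FPKM in DMSO and 10.7 to 103 in LY10. Of 12 hypoblast markers tested, 6 lay above 0 and 6 below with a median of 0.21, and 4 rose and 1 fell past the threshold, where 14.7% of all tested genes passed it. Among the 5 were PDGFRA, the PDGF receptor of hypoblast cells, at 3.74, HNF4A at 3.31, the basement membrane gene NID1 at 2.76 and the laminin chain LAMB1 at -1.07. GATA6, an early hypoblast factor named after its values were seen, did not pass and stood at 107, 91.3 and 64.8 FPKM in DMSO and 57.3, 46.2 and 52.6 in LY10, without overlap. The hypoblast sum overlapped between the groups, at 262 to 345 FPKM in DMSO and 267 to 442 in LY10. Without DMSO replicate 3, 3449 of 14252 tested genes passed the threshold. The counts without it were 1 higher of 6 epiblast markers, and 4 higher and 1 lower of 11 hypoblast markers with a median of 0.80. Of the trophectoderm markers 0 of 11 passed the threshold, and 2 of 10 rose without that embryo. In whole embryos, more cells of a type and more RNA per cell cannot be told apart, and the part of these cells in the FGFR4 difference was not tested.

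For FGF2 the fibroblast markers moved in the same direction. All 7 of 12 fibroblast markers that were tested had a lower level in LY10. Their median log2 fold change was -1.68, against -0.05 over all tested genes. The median over all genes was -0.33 without the filter and 0.06 with a mean of at least 50. Of all genes, 17871 to 20455 had a read in LY10 embryos and 20490 to 22126 in DMSO embryos. Of the 7 markers 4 fell past the threshold, against 8.51% of all tested genes. The count was 3 with voom weights and 5 without DMSO replicate 3, where 3449 of 14252 tested genes passed. The fibrillin gene FBN1 fell by 1.44 and the collagen gene COL1A2 by 1.22 on the log2 scale. DCN (-2.76) and TWIST1 (-3.74) are named after their values were seen, and TWIST1 had 0 reads in LY10 replicates 1 and 3. FGF2 was itself a low gene, with a mean normalised count of 17.9. The sum of the 12 markers was 27.4 to 92.5 FPKM in DMSO, with LUM making up most of the 92.5, and 6.57 to 12.2 in LY10. PRRX1 had 0 reads in all 6 embryos, and COL3A1 was at 0.114 FPKM or less. Cumulus cell markers, of the cells that surround the oocyte, summed to 26.6, 22.6 and 61.7 FPKM in DMSO and to 10.8, 10.8 and 28.3 in LY10, with overlap. Of 5 tested, 2 lay above 0 and 3 below with a median of -0.74, and the steroid enzyme HSD3B1 fell by 2.27 on the log2 scale past the threshold, a call that was lost without DMSO replicate 3. The part of fibroblast or cumulus transcripts in the FGF2 difference was not tested. NUDT6, which overlaps FGF2, stood at 0.689, 0.623 and 1.999 FPKM in DMSO and at 2.42, 1.79 and 1.01 FPKM in LY10, with overlapping groups. A tRNA gene of 72 bases within FGF2, also on the opposite strand, held 11 reads in DMSO replicate 1 and 0 in the other 5 embryos.

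**Figure D4:**
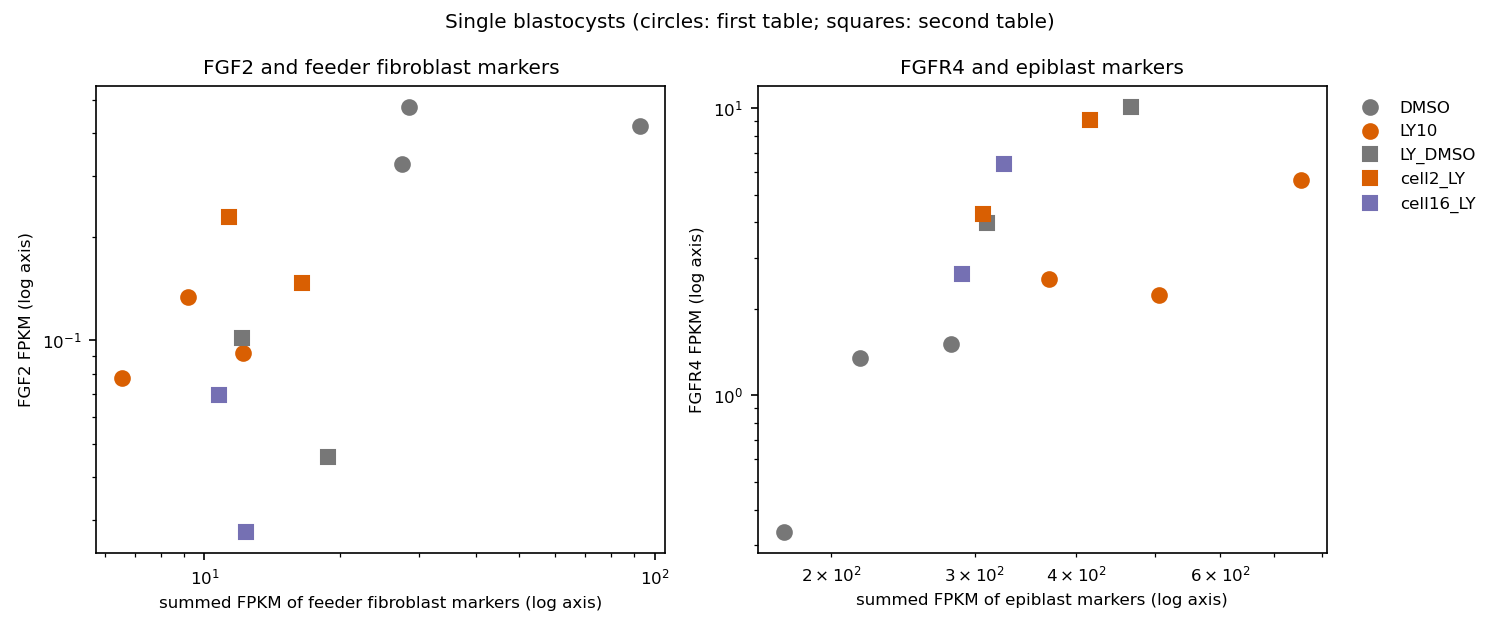
FGF2 against the summed fibroblast markers (left) and FGFR4 against the summed epiblast markers (right) in the 12 blastocysts, FPKM on log axes, circles for the first and squares for the second experiment. The 3 DMSO embryos lie at the upper right of the FGF2 panel and the lower left of the FGFR4 panel, apart from the 3 LY10 embryos. POU5F1 makes up most of each epiblast sum, and LUM most of the fibroblast sum of DMSO replicate 3.

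In the second experiment no member differed past the threshold between LY from the 2-cell stage and vehicle. FGFR4 stood at 9.10 and 4.26 FPKM in cell2_LY against 10.1 and 3.98 in LY_DMSO, a log2 fold change of -0.02 (SE 0.60, 95% interval -1.39 to 1.34). FGF2 stood at 0.228 and 0.147 FPKM in cell2_LY against 0.101 and 0.0460 in LY_DMSO, from 21 and 15 reads against 11 and 5. The cell2_LY embryos were the higher ones for FGF2, without overlap, and the log2 fold change was 1.29 (SE 1.07, adjusted p = 0.478 by limma). Cumulus markers were above 0 in 4 of 4 tested with a median of 1.21 and 1 past the threshold, STAR at 1.23. Their sum overlapped, at 85.2 and 24.3 FPKM in cell2_LY against 12.1 and 39.1 in LY_DMSO. Of 6 fibroblast markers tested, 1 lay above 0 and 5 below with a median of -0.23, and 0 passed the threshold. The fibroblast sum also overlapped, at 11.3 and 16.5 FPKM in cell2_LY against 12.1 and 18.9 in LY_DMSO. The part of either list in the FGF2 values was not tested. For FGFR3 (0.42), FGFR2 (-0.58) and FGFR1 (-0.21) the groups overlapped.

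The count was 0 of 5 members past the threshold, and 0 of 5 at an unadjusted p under 0.05 alone, both by limma and with voom weights, where 17.0% of the 14529 tested genes passed the threshold. Replicates did not overlap for 1 of the 5 members, against 53.7% of all tested genes. This member was FGF2, which met the filter through cell2_LY, at a mean normalised count of 18.9 against 7.41 in LY_DMSO and 4.89 in cell16_LY. Without LY_DMSO replicate 1, FGFR3 came past the threshold at 1.19 (adjusted p = 0.199 by limma). When reads on genes served as the library size, which shifted the median of all genes by 0.24, the values of FGFR1 and FGFR4 turned positive, at 0.017 and 0.21.

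LY from the 16-cell stage also left all 5 tested members short of the threshold. Against LY_DMSO, FGFR4 stood at 2.65 and 6.40 FPKM (log2 fold change -0.62, SE 0.60) and FGFR3 at 1.56 and 2.34 FPKM (-0.46, SE 0.54). FGF2 had 3 and 6 reads, at 0.0277 and 0.0696 FPKM (-0.53, SE 1.07), FGFR2 stood at 1.28 and 1.19 FPKM (0.25, SE 0.49), and FGFR1 at 0.707 and 0.481 FPKM (0.15, SE 0.65). The groups overlapped for all 5, where 42.9% of all tested genes did not overlap and 5.22% passed the threshold. At an unadjusted p under 0.05 alone, limma and voom each gave 0 of 5. Without LY_DMSO replicate 2, FGFR3 came past the threshold at -1.23 (adjusted p = 0.866 by limma).

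Between the starting stages, the cell16_LY embryos had less FGFR3 and FGF2 and more FGFR2 than the cell2_LY embryos without overlap, and none of these passed the threshold. The log2 fold changes of cell16_LY against cell2_LY were -0.87 for FGFR3 (SE 0.54, adjusted p = 0.411), -1.82 for FGF2 (SE 1.07, adjusted p = 0.388) and 0.82 for FGFR2 (SE 0.49, adjusted p = 0.394) by limma. Those 3 of 5 members without overlap stand against 54.5% of all tested genes, and the 0 of 5 past the threshold, or under an unadjusted p of 0.05 by limma and by voom, against 11.3%. FGF2, 1 of the 3, met the filter through cell2_LY. The 3 comparisons of this experiment share libraries and are not independent.

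The 2 embryos of a group differed in FGFR3 and FGFR4 together. In LY_DMSO replicate 1, cell2_LY replicate 1 and cell16_LY replicate 2 both receptors were higher than in the other embryo of the group. The hypoblast marker sum was higher in the same 3 embryos, at 572, 585 and 519 FPKM against 345, 339 and 423, and so was the epiblast sum, at 467, 415 and 326 against 311, 307 and 289. PDGFRA stood at 58.2, 14.6 and 27.7 FPKM in these embryos and at 18.3, 4.51 and 8.56 FPKM in the other embryo of each group. Other markers did not all follow, and those given here are named after their values were seen. GATA6 stood at 58.6, 88.5 and 54.8 FPKM against 61.2, 91.7 and 38.2. LAMB1 stood at 22.0, 24.7 and 28.9 FPKM against 37.1, 26.2 and 25.4, and NANOG at 49.6, 33.3 and 18.6 FPKM against 31.6, 1.68 and 30.9. With 1 embryo on each side in a group these are values without a test, and the part of the markers in them was not tested.

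In bESCs 0 of the 6 tested members differed past the threshold between bESC_LY and bESC_tifx. The largest log2 fold change was -0.30 for FGF10 (SE 1.57), which rests on 25 reads in bESC_LY and 21 in bESC_tifx and whose mean count was the higher one in bESC_LY, and the receptors ranged from -0.18 for FGFR3 (SE 0.23) to 0.18 for FGFR4 (SE 0.91). FGFR1 was at -0.09 (95% interval -1.29 to 1.11), FGFR2 at -0.03 (-0.46 to 0.41) and FGF2 at 0.13 (-0.59 to 0.86). For FGFR2, FGFR3 and FGF2 the interval excluded a change of 2-fold in either direction, and for FGFR1 and FGFR4 it did not. The fit did not use the library number, so these intervals include the difference between libraries 2 and 3. In bESC_LY against bESC_tifx, FGFR1 was 107 against 120 FPKM in library 2 and 213 against 215 in library 3. FGFR4 was 2.74 against 2.45 and 0.765 against 0.666 FPKM. By limma 0 of 6 passed the threshold and 0 of 6 had an unadjusted p under 0.05, and voom gave the same counts, where 0.0749% of the 16012 tested genes passed. The groups overlapped for all 6, against 14.2% of tested genes that did not.

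The rest of the pathway was followed through lists of genes. Of the 20 adaptors and Ras-ERK relay genes, 18 were tested in the first experiment, and 2 rose and 1 fell past the threshold in LY10, with a median log2 fold change of 0.29. ARAF, a RAF kinase, was at 1.28 and HRAS, a Ras GTPase, at 1.26. Without DMSO replicate 3 the counts were again 2 higher and 1 lower, where 3449 of 14252 tested genes passed. In cell2_LY against LY_DMSO 3 of 19 rose, where 17.0% of all tested genes passed the threshold. They were the ubiquitin ligase CBL, which turns over activated receptors, at 1.96, the adaptor SHC1 at 1.05 and, named after its values were seen, the ERK gene MAPK3 at 1.92. In cell16_LY against LY_DMSO 1 of 19 rose, CBL at 1.06, where 5.22% of all tested genes passed. In cell16_LY against cell2_LY 0 of 19 passed the threshold, against 11.3% of all tested genes, with 2 at an unadjusted p under 0.05 by limma and also by voom.

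Among the feedback inhibitors and ERK target genes, in LY10, 2 of 16 tested fell past the threshold and 0 rose, with a median of -0.21. Over all tested genes 14.7% passed the threshold. DUSP5, an ERK phosphatase, fell by 2.48 on the log2 scale, from 11.2, 15.5 and 16.5 FPKM in DMSO to 1.01, 3.50 and 4.44 in LY10, without overlap. FOSL1 fell by 1.64 and is named after its values were seen. Without DMSO replicate 3 the counts were 2 higher and 1 lower of 15, with a median of 0.09, where 3449 of 14252 tested genes passed.

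In cell2_LY, 15 of 17 feedback and target genes had a higher level than in LY_DMSO and 5 rose past the threshold, where 17.0% of all tested genes passed it, with a median of 0.92 against 0.00 over all tested genes. ETV4, an ETS factor downstream of FGF, rose by 2.24 on the log2 scale, DUSP5 by 1.96, MYC by 1.70 and SPRY4, a Sprouty inhibitor, by 1.61, and FOSL1 (1.58) was named after its values were seen. ETV4 stood at 1.58 and 2.66 FPKM in cell2_LY against 0.349 and 0.509 in LY_DMSO. DUSP5 stood at 6.18 and 18.4 FPKM against 3.33 and 2.21. Trophectoderm markers moved with the list, with 10 of 12 above 0, a median of 0.53 and 2 past the threshold, among them GATA2 at 57.3 and 48.9 FPKM in cell2_LY against 18.2 and 9.71 in LY_DMSO. So did the cumulus markers, with 4 of 4 above 0, and the part of either was not tested. Single embryos decided the count of the feedback list, and a fit without a cell2_LY embryo leaves 1 in that group. With 1 library left out at a time, the log2 fold change ranged from 1.87 to 2.62 for ETV4 and from 1.18 to 2.75 for DUSP5. For MYC it ranged from 1.03 to 2.36 and for SPRY4 from 1.12 to 2.10.

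In cell16_LY against LY_DMSO, 15 of 17 were again above 0 with a median of 0.76. Past the threshold 2 rose, DUSP5 at 2.24 and the early-response factor EGR1 at 2.16, where 5.22% of all tested genes passed. Trophectoderm markers lay above 0 in 10 of 12, with a median of 0.55, and cumulus markers in 3 of 4, with a median of 0.73, and their part was not tested. The vehicle embryos are shared with the comparison before. Between cell16_LY and cell2_LY 1 of 17 passed, ETV4, which fell by 1.37 on the log2 scale, where 11.3% of all tested genes passed. In bESCs the list stood at a summed 381 to 400 FPKM, against 73.7 to 250 FPKM in blastocysts, and 0 of 18 passed the threshold or an unadjusted p under 0.05 by limma or voom, with a median of 0.04.

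**Figure D5:**
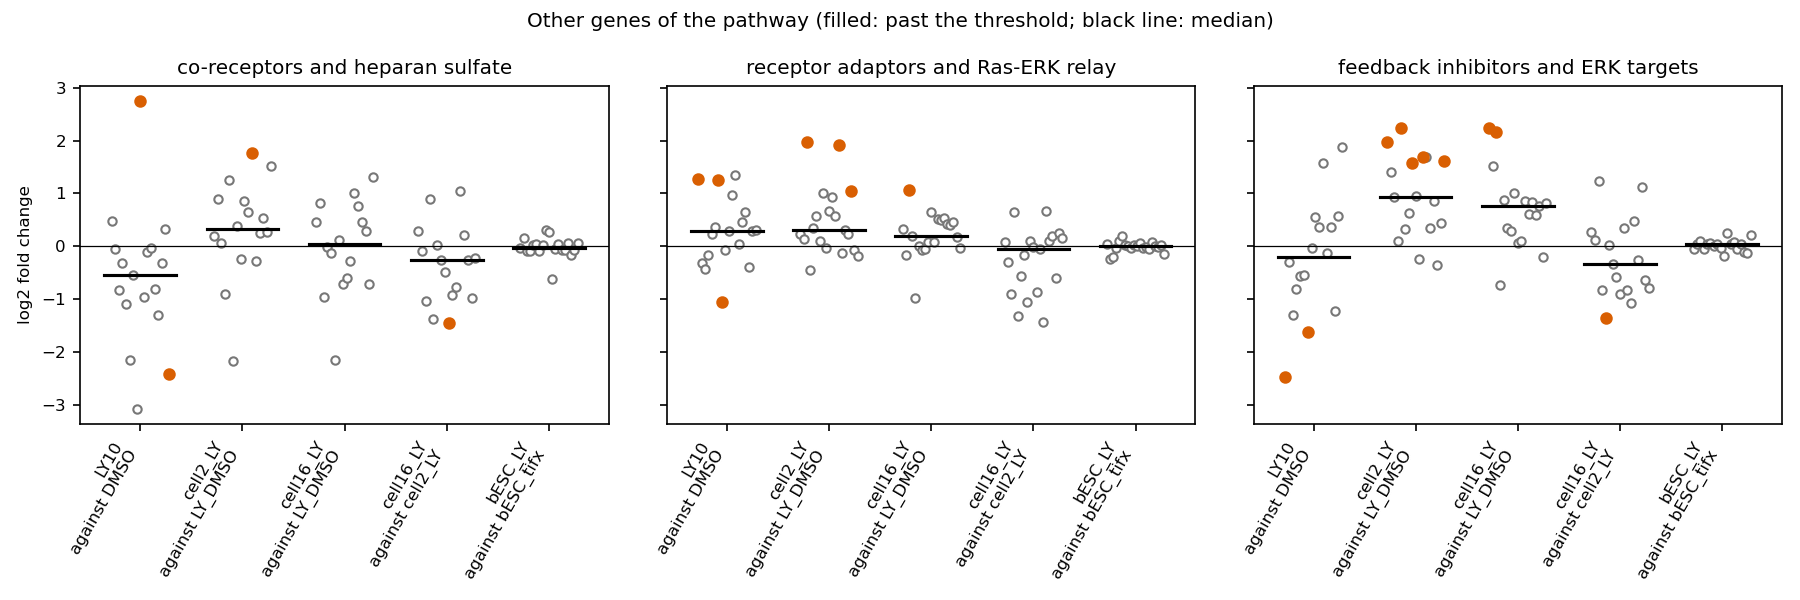
Log2 fold change of each tested gene of 3 pathway lists in the 5 comparisons, 1 point per gene, filled where past the threshold, with the list median as a black line. The feedback and ERK target list has its highest median, 0.92, in cell2_LY against LY_DMSO and lies near 0 in bESCs.

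Among co-receptors and heparan sulfate genes, SDC4, a syndecan, was at 55.1 to 120 FPKM in blastocysts, and GPC4, a glypican, was at 71.0 to 191 FPKM in bESCs, both named after their values were seen. In LY10 1 of 17 rose and 1 fell, where 14.7% of all tested genes passed the threshold. They were KLB at 2.74 and the sulfatase SULF2 at -2.43, also named after their values were seen, and the list median was -0.54. Without DMSO replicate 3, 1 of 17 rose and 4 fell, with a median of -0.96, where 3449 of 14252 tested genes passed. In cell2_LY 1 of 16 rose, the syndecan SDC1 at 1.77, where 17.0% of all tested genes passed. The heparan sulfate enzyme NDST1 was the 1 gene of 16 past the threshold in cell16_LY against cell2_LY, at -1.45, against 11.3% of all tested genes. In cell16_LY against LY_DMSO 0 of 16 passed, against 5.22% of all tested genes, with 1 under an unadjusted p of 0.05 by limma and by voom. Of the other ligands, 0 of 1 passed in each blastocyst comparison, also at an unadjusted p under 0.05 by limma or voom. Of the intracellular FGF homologues FGF11 to FGF14, which are not secreted, 1 of 1 tested fell in cell2_LY, FGF12 at -2.44 and named after its values were seen, and the call was lost with voom weights. In LY10 0 of 2, and in the other blastocyst comparisons 0 of 1, passed the threshold or an unadjusted p under 0.05 by limma or voom. In bESCs 0 of 8 other ligands, 0 of 2 homologues, 0 of 19 co-receptor genes and 0 of 20 relay genes passed the threshold or an unadjusted p under 0.05 by limma or voom. Of all tested genes 0.0749% passed the threshold there.

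FGFR2, FGFR3 and FGFR4 had enough reads for a comparison of their pattern with 9325 other genes over the 12 blastocysts, centred on the mean of each table. Among the genes nearest to FGFR4 were DPYS (Pearson r = 0.94) and CDCA7 (0.94). Nearest to FGFR3 were SPATA7 (0.92), PHF23 (0.89) and KHSRP (0.86), and nearest to FGFR2 were DHX8 (0.92), GAMT (0.90) and DOCK11 (0.90). The receptors were less like each other, with r = 0.52 between FGFR2 and FGFR4, 0.28 between FGFR3 and FGFR4, and -0.01 between FGFR2 and FGFR3. These are descriptions over 12 embryos that share tables, treatment groups and library scaling, picked as the highest of many, and they carry no p.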

How the data were processed

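RNA of 12 single blastocysts and 4 bESC libraries was sequenced by the study. Per the submitters' processing notes, the tools were HISAT2 2.0.5, featureCounts 1.5.0-p3, StringTie 1.3.3b and DESeq2 1.20.0, and the methods also name STAR. The authors deposited FPKM per gene and library, computed from gene counts and gene lengths and not pooled. The deposited tables also hold the authors' own fold changes and p-values, which were not used.

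In every library 100% of the FPKM, once multiplied by gene length, were whole read numbers to a tolerance of 0.02, so reads and the authors' library sizes were recovered. Reads divided by those library sizes and rescaled within each table (normalised counts) were compared by limma 3.58.1 in R 4.3.3, on log2(normalised count + 1) with a trended prior, for genes with a mean of at least 10. The 3 groups of the second experiment shared 1 fit. The threshold was an unadjusted p under 0.05 with an absolute log2 fold change above 1. Fold changes of low genes are understated on this scale. The fit was also run on simulated data, with changes only in genes of a mean of at least 50. The simulated spread was set and not taken from these libraries. That run therefore gives no assurance for genes as low as FGF2 in blastocysts. Other steps used Python 3.11.15 with numpy 2.4.6, pandas 2.3.3, scipy 1.17.1 and matplotlib 3.10.9. Groups came from the labels. Intervals of reads are exact Poisson intervals at 95%, and these and the limit of 3 reads for a count of 0 cover counting error only. NCBI RefSeq positions are those of ARS-UCD2.0, and the build of the bESC table is not given in the sources used here.

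The 7 genes and the lists were chosen with earlier results of these data known. Named besides the 7 were, per list and comparison, up to 4 genes with the smallest p among those past the threshold with a mean normalised count of at least 50, and, per receptor with such a mean, the 3 genes of highest Pearson correlation over the 12 blastocysts. Of the genes this rule gives, 2 are not reported here. Other named genes are marked as chosen after their values were seen. Alternatives were other pseudocounts, filters, size factors, quantile normalisation, voom weights on the recovered reads, log2(FPKM + 1), a replicate block, fits without the uncompared group, and leaving out single libraries. In the second experiment the size factors were in proportion to the divisors already used, so that alternative could not differ from the main fit there. Chosen after seeing the data were reads on genes as library size, a crossed block and the bESC gene lengths. Replicate numbers did not pair the samples by the labels, or by correlation where there were 3 pairs.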

Additional observations from a re-analysis of the deposited data

Results flagged for a closer look

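FGF2 moved in opposite directions in the blastocyst experiments that gave LY from the 2-cell stage. Each LY10 embryo was below each DMSO embryo, with a log2 fold change of -1.88, and each cell2_LY embryo was above each LY_DMSO embryo, with a log2 fold change of 1.29. The values lie 3.18 apart on the log2 scale. The experiments are in separately normalised tables, and the difference between them was not tested. The vehicle embryos stood at 0.326 to 0.475 FPKM in the first experiment and at 0.0460 to 0.101 FPKM in the second, and the second comparison rests on 5 to 21 reads per embryo. In each experiment FGF2 met the filter for a test only through the group where it was higher.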

How the results depend on the processing

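In LY10 against DMSO the count of 2 members past the threshold was 1 with a mean of at least 50, quantile normalisation or log2(FPKM + 1), and 1 to 3 with a library left out. FGF2 was not tested under the first and last of these. Without the filter the count was 1 in cell2_LY against LY_DMSO and in cell16_LY against cell2_LY (FGF10 at 2.20 and -2.20, from 7 reads in all) and 1 in bESCs (FGF4 at 2.01, from 6 reads). With a library left out it was 0 to 1 in cell2_LY and in cell16_LY against LY_DMSO. With reads on genes as library size, chosen after seeing the data, FGFR1 was 0.017 and FGFR4 0.21 in cell2_LY against LY_DMSO, and the share of lower calls over all genes went from 48.9% to 26.8% there and from 50.9% to 75.0% in cell16_LY against cell2_LY. Quantile normalisation moved it from 57.8% to 45.0% in LY10.

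Leaving out libraries turned the sign of values that were not past the threshold. The ranges were -0.45 to 0.96 for FGFR2 in LY10. In cell2_LY against LY_DMSO they were -0.65 to 0.23 for FGFR1, -0.36 to 1.19 for FGFR3 and -0.69 to 0.65 for FGFR4. In cell16_LY against LY_DMSO they were -0.29 to 0.59 for FGFR1, -0.13 to 0.62 for FGFR2, -1.23 to 0.32 for FGFR3, -1.29 to 0.050 for FGFR4 and -1.07 to 0.012 for FGF2. FGFR4 was -1.23 to 0.038 in cell16_LY against cell2_LY. In bESCs they were -0.59 to 0.41 for FGFR1, -0.15 to 0.094 for FGFR2, -0.43 to 0.071 for FGFR3, -0.75 to 1.11 for FGFR4, -0.14 to 0.40 for FGF2 and -1.38 to 1.47 for FGF10. A lone library is assumed to vary like the rest.

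Over all genes, 2097 calls in LY10 became 1350 with a mean of at least 50, and 1327 (without DMSO replicate 2) to 3449 (without DMSO replicate 3) with a library left out. The 2476 of cell2_LY became 1628 with log2(FPKM + 1), and 1576 (without cell2_LY replicate 1) to 3404. The 758 of cell16_LY against LY_DMSO became 1238 without the filter, 454 with log2(FPKM + 1), and 350 (without cell16_LY replicate 1) to 1362 (without LY_DMSO replicate 1). The 1649 of cell16_LY against cell2_LY became 958 with log2(FPKM + 1), and 816 (without cell16_LY replicate 1) to 2910 (without cell2_LY replicate 2), with 930 without cell2_LY replicate 1. The 12 of bESCs became 158 without the filter, 2 with a mean of at least 50, 22 with log2(FPKM + 1), and 29 to 58 without any 1 library. The causes of these shifts were not tested.

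The replicate block gave 2060, 2489, 790, 1632 and 146 calls in the 5 comparisons in the order above and changed no call of a member. In bESCs it put 116 genes under an adjusted p of 0.05 by limma, against 0 in the main fit. Same-numbered deviations correlated at -0.117, 0.168 and -0.0997 in the first experiment and at 0.789 in bESCs, where the labels name no shared culture. In the second they were 0.121 for cell2_LY and LY_DMSO, -0.232 for cell16_LY and LY_DMSO, and -0.133 for cell16_LY and cell2_LY, and the crossed block gave 928 and 1891 calls in the comparisons with cell16_LY. Depth limits FGF4, FGF10 and FGF2 in blastocysts.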
